A study of Mus musculus with 30 samples.

Results

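The 10 genes described here are the core of the mammalian circadian clock as named in a list of 10 symbols: Arntl (Bmal1), Clock, Npas2, Per1, Per2, Per3, Cry1, Cry2, Nr1d1 (Rev-erb alpha) and Dbp. They were taken by symbol from a table of 48820 genes, each matched 1 row, and all 10 were among the 19280 genes with enough counts to be tested. The rule uses names and no measured value.

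The data are poly(A) RNA-seq libraries of hearts from untreated wild-type (WT) mice. Hearts were sampled at embryonic days 10.5, 12.5, 14.5, 16.5 and 18.5 (E10.5 to E18.5), on postnatal day 1 (P1) and in postnatal weeks 1, 2, 4 and 8 (1W to 8W), with 3 libraries at each of the 10 ages and 30 in all. The labels give neither strain nor sex, and do not say if an age's 3 libraries are from separate mice or from pools. The p-values thus reflect only how these libraries spread, which may be technical. The hour at which the hearts were taken and the lighting are not given either, so a difference between ages cannot be told apart from a difference in time of day.

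The circadian clock is a feedback loop of transcription that runs in nearly every mammalian cell. ARNTL pairs with CLOCK or its relative NPAS2 and switches on genes that carry E-boxes, among them the Per and Cry genes, Nr1d1 and Dbp. PER and CRY proteins then return to the nucleus and block that activation, while NR1D1 represses Arntl and DBP drives genes that carry D-boxes. In the adult heart the loop sets daily rhythms of metabolism and ion channels, and Arntl and the output genes Nr1d1 and Dbp peak at nearly opposite times of day.

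These promoter sequences show the letters through which the loop is known to act, an E-box or its variant in Per1, Cry1 and Nr1d1, the D-box in Per3 and the site read by ROR and NR1D1 proteins in Arntl. RefSeq windows (assembly GRCm38.p6, 250 bases before to 50 after an annotated start, 300 bases each) were found for 9 of the 10 genes, all except Per2. The capitals mark a match to the E-box CACGTG, the E-prime box CACGTT, the D-box TTATGTAA or the RORE core TAGGTCA, searched on both strands, so AACGTG is an E-prime box on the opposite strand. Each sequence reads 5′ to 3′ on the gene's strand.
Arntl, chr7:113207261-113207560, plus strand: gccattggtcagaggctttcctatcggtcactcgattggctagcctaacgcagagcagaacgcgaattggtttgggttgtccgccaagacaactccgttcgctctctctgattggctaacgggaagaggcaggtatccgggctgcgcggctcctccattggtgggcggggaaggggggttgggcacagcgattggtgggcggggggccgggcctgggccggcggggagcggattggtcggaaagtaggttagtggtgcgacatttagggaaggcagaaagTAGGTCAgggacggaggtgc
Per1, chr11:69098699-69098998, plus strand: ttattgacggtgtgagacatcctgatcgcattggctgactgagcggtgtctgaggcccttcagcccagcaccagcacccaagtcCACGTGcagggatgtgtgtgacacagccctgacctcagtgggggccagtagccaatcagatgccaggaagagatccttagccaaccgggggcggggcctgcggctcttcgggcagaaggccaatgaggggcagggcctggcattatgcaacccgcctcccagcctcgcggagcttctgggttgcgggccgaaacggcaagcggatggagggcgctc
Per3, chr4:151044616-151044915, minus strand: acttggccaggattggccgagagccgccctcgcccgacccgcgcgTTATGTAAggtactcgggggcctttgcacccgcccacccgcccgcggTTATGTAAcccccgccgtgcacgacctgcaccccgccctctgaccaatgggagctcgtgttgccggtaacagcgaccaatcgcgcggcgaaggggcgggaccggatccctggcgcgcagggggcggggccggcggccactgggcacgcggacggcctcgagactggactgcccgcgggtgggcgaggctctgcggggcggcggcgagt
Cry1, chr10:85185005-85185304, minus strand: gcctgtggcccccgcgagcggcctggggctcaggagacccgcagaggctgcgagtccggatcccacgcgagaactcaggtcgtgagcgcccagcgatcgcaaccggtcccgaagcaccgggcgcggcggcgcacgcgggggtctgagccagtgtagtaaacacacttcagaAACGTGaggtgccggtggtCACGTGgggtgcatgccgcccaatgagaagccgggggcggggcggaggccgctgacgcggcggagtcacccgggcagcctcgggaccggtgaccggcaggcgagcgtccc
Nr1d1, chr11:98775328-98775627, minus strand: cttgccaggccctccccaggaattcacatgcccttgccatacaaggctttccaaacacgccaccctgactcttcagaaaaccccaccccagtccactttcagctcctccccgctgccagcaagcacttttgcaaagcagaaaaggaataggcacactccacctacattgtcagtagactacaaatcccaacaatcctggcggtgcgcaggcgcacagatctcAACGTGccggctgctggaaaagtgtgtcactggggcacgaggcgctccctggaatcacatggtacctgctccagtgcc

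Counting from the annotated start, the E-box of Per1 began at -166 and that of Cry1 at -60, with an E-prime box of Cry1 at -79. Per3 held 2 D-boxes, at -205 and -158, in place of an E-box. The RORE core of Arntl lay just after the start, at 31, in 1 of its 2 annotated windows, and the E-prime box of Nr1d1 at -28. Cry2 had an E-prime box at -166. None of the 6 motifs searched, which also included the D-box TTACGTAA and the CRE TGACGTCA, was found in the windows of Clock, Npas2 or Dbp, nor in the other windows of Arntl and Per1. Of all 32817 windows of this length, 7.15% held the E-box, 4.69% the E-prime box, 0.935% the first D-box, 0.119% the second, 2.61% the RORE core and 1.79% the CRE. A match is a run of letters and no measurement of binding.

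Libraries held between 23164941 and 50519457 counts. Levels are given as CPM, the counts of a gene per 1e+06 counts of the library, after scaling by trimmed means (TMM), and a change is a log2 ratio of the later to the earlier age from edgeR's quasi-likelihood test, with its standard error (SE) and a p adjusted over all 19280 genes by Benjamini-Hochberg, called at 0.05. As a check of the tissue label, 6 of 6 cardiomyocyte marker genes had counts at each age, their summed level running from 7264 CPM in the lowest E10.5 library to 119641 CPM in the highest 4W library. Transcripts of the mitochondrial genome took 2.73% of counts in the lowest embryonic library and 19.2% in the highest 8W library. Scaling by library totals alone shifted the log2 change of the median gene by -0.77 between P1 and 8W, by -0.29 between 1W and 2W, by -0.22 between 2W and 4W, by -0.16 between E10.5 and E18.5 and by between -0.15 and 0.05 in the other comparisons. 3 libraries resembled the others of their age least, E10.5 replicate 2 (mean r 0.980) and 2W replicates 2 and 3 (0.984 and 0.983), against at least 0.987 in the rest, and calls of the 10 genes that change without one of them are given beside the result.

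All 10 genes differed among the 10 ages by edgeR's test, with adjusted p from 3.2e-24 for Per1 to 6.4e-07 for Cry1, but so did 93.6% of all genes tested. The range between the lowest and highest age mean was 63.4-fold for Npas2, 25.9-fold for Nr1d1, 23.3-fold for Per1 and 13.3-fold for Dbp. It was 7.78-fold for Per2, 7.51-fold for Arntl, 7.03-fold for Per3, 4.21-fold for Cry2, 3.81-fold for Clock and 1.53-fold for Cry1. The genes thus differed widely in how far they moved, with Cry1 nearly level over development and the low end at an embryonic age for every one of the 10.

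**Figure D1:**
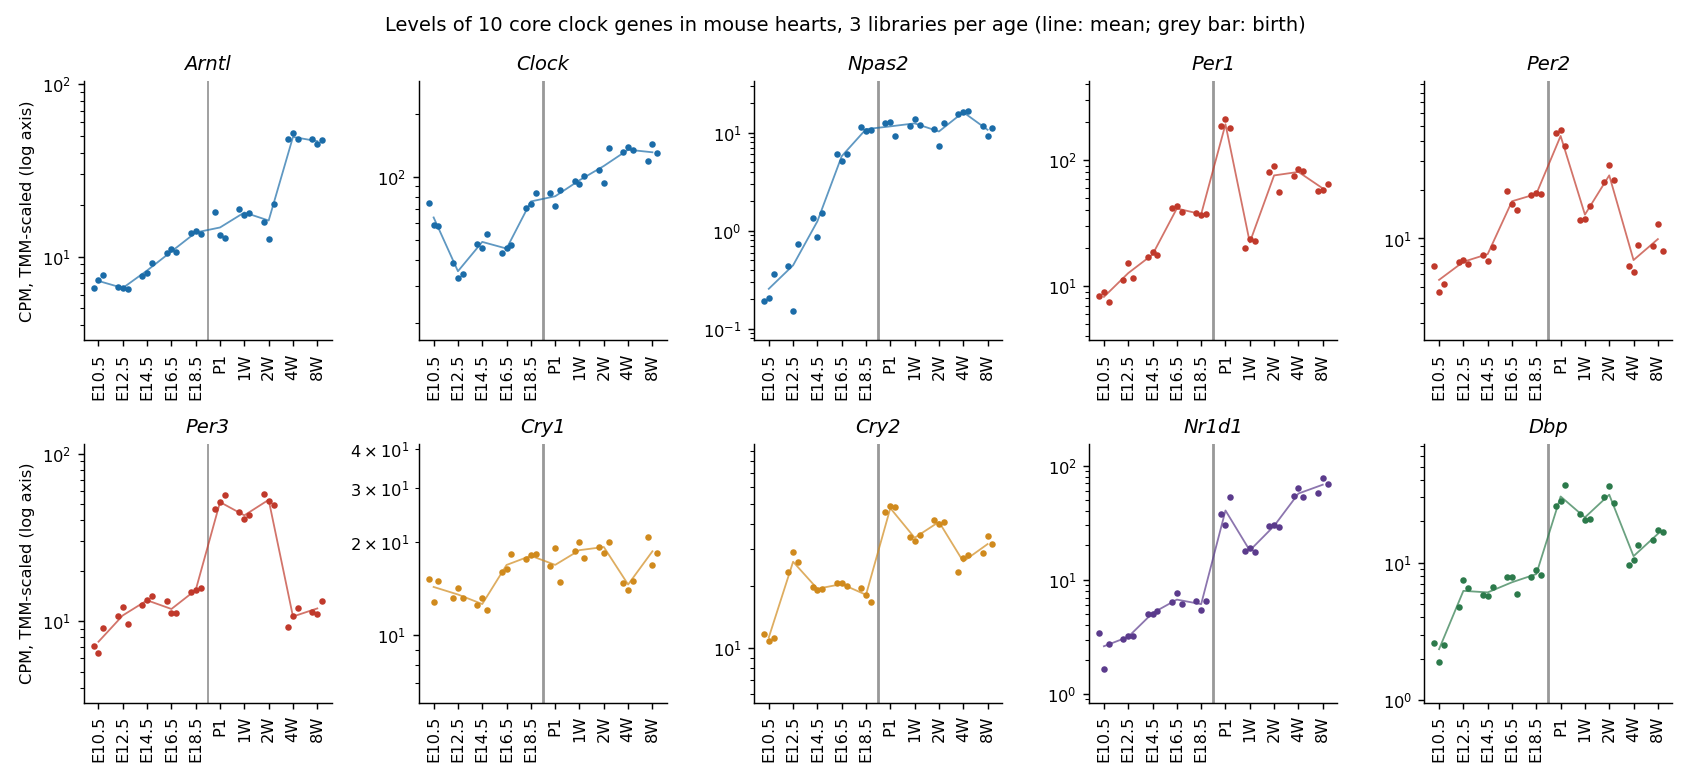
Level of each of the 10 clock genes (CPM after TMM scaling, log axis with its own range per gene) against age, 1 point per library, 3 per age, with a line through the means and a grey bar at birth. Per1, Per2, Per3, Cry2, Nr1d1 and Dbp step up between E18.5 and P1, Arntl steps up between 2W and 4W, and Per3 and Dbp step down there.

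Across gestation all 10 genes were called higher at E18.5 than at E10.5, where 63.3% of all genes were called, 32.9% higher and 30.4% lower. Their median log2 change was 1.12, beside 0.00 for all genes tested. The changes were 5.35 for Npas2, 2.18 for Per1, 1.81 for Dbp, 1.77 for Per2, 1.22 for Nr1d1, 1.02 for Per3, 0.93 for Arntl, 0.68 for Cry2, 0.33 for Cry1 and 0.26 for Clock, with SE from 0.09 to 0.31. With library totals alone as scale 8 of the 10 were called higher and none lower, Clock and Cry1 no longer passing. With RLE size factors (another scaling), upper quartile factors or DESeq2, 9 were called, Clock no longer passing. Several lists of cell type markers rose over the same span. Called higher were 6 of 6 cardiomyocyte markers (summed 7264 to 8787 CPM at E10.5 and 29031 to 30971 CPM at E18.5) and 4 of 5 fibroblast markers (618 to 734 CPM and 4866 to 5112 CPM). On library totals 4 fibroblast markers were called higher and 1 lower. All 5 macrophage markers (5.41 to 6.50 CPM and 81.6 to 96.8 CPM) and all 5 endothelial markers (529 to 684 CPM and 929 to 1052 CPM) were also called higher. The other lists were mixed or only partly called. Smooth muscle and pericyte markers had 3 of 5 higher and 2 lower, with sums of 1595 to 1935 CPM and 1145 to 1418 CPM. Neuron markers had 3 of 5 higher and 1 lower, erythroid markers 2 of 6 and 1, and fat markers 2 of 5 and none. The part of these markers in the changes of the clock genes was not tested. Across birth, from E18.5 to P1, 6 of the 10 were called higher and none lower, against 19.8% and 19% of all genes (38.8% together), and the members' median log2 change was 1.29 beside 0.00. That count was 6 under every alternative run.

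The first embryonic step, E12.5 against E10.5, had 5 members called higher and 1 lower, against 31% and 24.4% of all genes (55.4% together). With RLE size factors or upper quartile factors the split was 4 and 1. At E14.5 against E12.5 it was 4 and 1 (10.5% and 7.8%, together 18.3%), and Arntl (0.34, adjusted p = 0.055) and Per3 (0.30, adjusted p = 0.062) missed the threshold. Both passed with upper quartile factors (0.047 and 0.037), with only the 6 libraries compared (0.021 and 0.017) and with DESeq2 (0.036 and 0.038), which called 7 members. They also passed without E10.5 replicate 2 (0.044 and 0.036), and Arntl without 2W replicate 2 (0.028) or 3 (0.026). At E16.5 against E14.5 it was 5 and 0 (14.1% and 12%, together 26%), or 3 and 1 on library totals. At E18.5 against E16.5 it was 4 and 0 (13% and 11.2%, together 24.2%). The last of these counts fell to 2 without E16.5 replicate 2, without E16.5 replicate 3 or without E18.5 replicate 3, since the small changes of Arntl and Per3 then missed the threshold. Of the 4 embryonic steps, Npas2 and Per1 were called higher at 3 each, so the gain of these genes was spread over several steps. Other members differed. Nr1d1 was called at 1 step and Dbp only at E12.5 against E10.5 (1.41). Cry2 was called higher at E12.5 (1.22) and lower at E14.5 (-0.43). Clock was called lower at E12.5 (-0.85) and higher at E14.5 (0.47) and E18.5 (0.75).

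After birth the direction changed from step to step. At 1W against P1, none was called higher and 5 lower (18.8% and 17% of all genes, together 35.8%). The lower count of this step was 6 with RLE size factors, upper quartile factors or library totals, where Per3 also passed. Arntl also passed there, as higher, without 2W replicate 2 (0.30, adjusted p = 0.024), 2W replicate 3 (0.30, 0.022), E10.5 replicate 2 (0.29, 0.045) or P1 replicate 1 (0.47, 0.0035), against 0.29 (0.056) with all libraries. At that step 4 of 5 fibroblast markers were called higher, with sums of 4651 to 6266 CPM at P1 and 8778 to 9107 CPM at 1W, and 3 of 5 endothelial markers (2 on library totals), with sums of 1150 to 1242 CPM and 1556 to 1605 CPM. At 2W against 1W, 6 were called higher and none lower (15.5% and 14.1%, together 29.6%), but 3 and 2 on library totals, where Arntl and Npas2 were called lower. Arntl (-0.16, adjusted p = 0.35) was also called lower without 2W replicate 3 (-0.34, adjusted p = 0.03). At 4W against 2W, 3 were called higher and 5 lower (15.8% and 13%, together 28.9%), or 2 and 5 on library totals. At 8W against 4W, 4 were called higher and 2 lower (11.8% and 12.1%, together 23.9%), with none and 2 on library totals. That last count was 2 without 4W replicate 1 and 3 without 4W replicate 2 or 8W replicate 2. Over the whole postnatal span, 8W against P1, 3 were called higher and 5 lower (31.8% and 35.1%, together 66.8%), with 1 and 7 on library totals, and the members' median log2 change was -0.35 beside -0.11 for all genes.

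**Figure D2:**
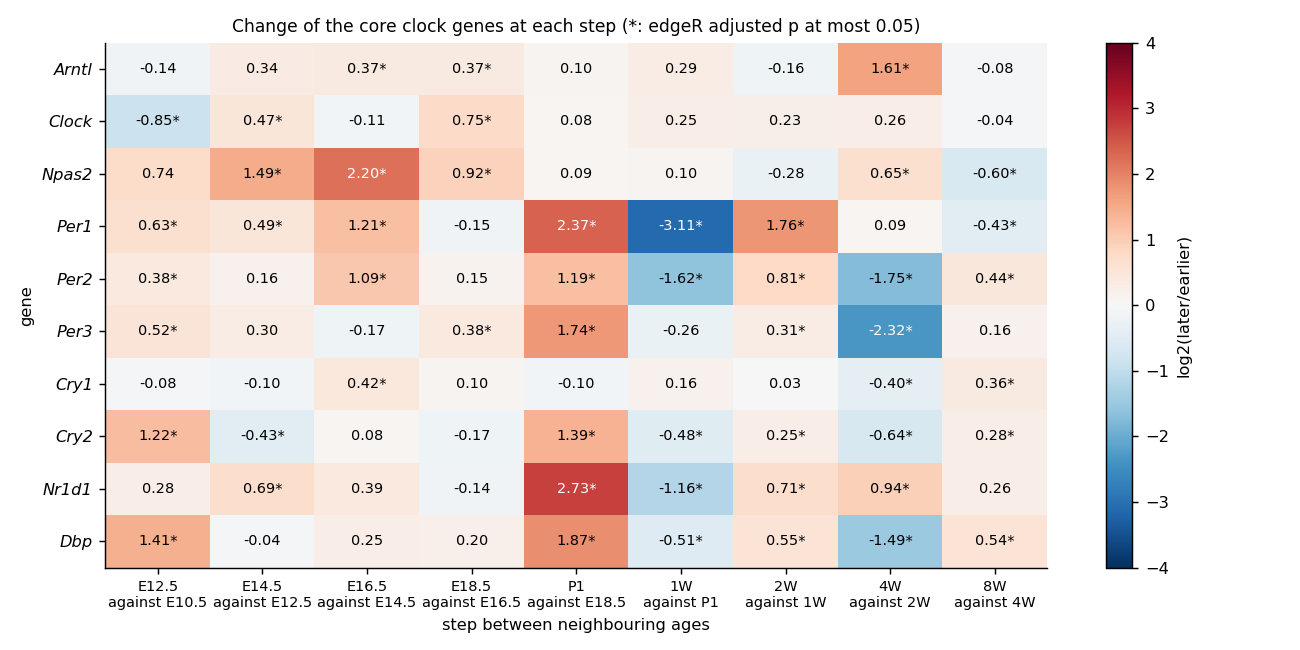
Log2 change of each clock gene (rows) at each of the 9 steps between neighbouring ages (columns), with the value printed and coloured red for higher and blue for lower at the later age. Stars mark an edgeR adjusted p of at most 0.05. The largest values in the map are Nr1d1 (2.73) and Per1 (2.37) at P1 and Per1 (-3.11) at 1W.

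Arntl encodes the partner of CLOCK and of NPAS2 in the activator. The gene lies on chromosome 7 at 113207465-113314126 in GRCm38. Its libraries read 6.56, 7.29 and 7.81 CPM at E10.5, 6.63, 6.55 and 6.52 at E12.5 and 7.73, 8.04 and 9.14 at E14.5. They read 10.4, 11.0 and 10.7 at E16.5 and 13.8, 14.1 and 13.5 at E18.5, so that no E18.5 library overlapped any earlier one. From P1 to 2W the libraries spread between 12.7 and 20.1 CPM, with 18.2, 13.2 and 12.8 at P1, 18.8, 17.3 and 18.0 at 1W and 15.8, 12.7 and 20.1 at 2W. It then stood at 48.0, 52.0 and 48.0 at 4W and 47.7, 45.1 and 47.1 at 8W, every one of these 6 libraries above every earlier library. The rise over gestation was 0.93 ± 0.12 (SE, adjusted p = 7.4e-08) by edgeR. The step from 2W (16.2 ± 3.71 CPM, SD, n = 3) to 4W (49.3 ± 2.34) was 1.61 ± 0.12 (SE, adjusted p = 1.1e-11) by edgeR, and 1.38 (adjusted p = 4.4e-10) on library totals. Across birth the change was 0.10 ± 0.12 (SE, adjusted p = 0.56), and it was -0.02 on library totals and -0.08 without P1 replicate 1.

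Clock, whose product is the usual partner of ARNTL (chromosome 5, 76209868-76304792), followed another course. It was high at E10.5, with 74.6, 58.4 and 58.4 CPM, and lower at E12.5, with 38.6, 32.9 and 34.4. The change was -0.85 ± 0.11 (SE, adjusted p = 7.7e-08) by edgeR, and the 2 ages did not overlap. The libraries read 47.6, 45.4 and 53.3 at E14.5, 43.0, 45.7 and 47.2 at E16.5 and 70.6, 74.1 and 83.5 at E18.5. By edgeR the step to E14.5 was 0.47 ± 0.11 (SE, adjusted p = 0.0026) and that from E16.5 to E18.5 was 0.75 ± 0.11 (SE, adjusted p = 6.9e-06). The E18.5 libraries overlapped those of E10.5, and the change over gestation of 0.26 ± 0.11 (SE, adjusted p = 0.04) missed the threshold without E10.5 replicate 2 (adjusted p = 0.16) and without E10.5 replicate 3 (0.16), E18.5 replicate 2 (0.052) or E18.5 replicate 3 (0.18). That change also missed with RLE size factors (0.23, adjusted p = 0.06), upper quartile factors (0.19, 0.17), library totals (0.09, 0.52) and DESeq2 (0.23, 0.069). After birth the means ran from 80.6 ± 7.13 CPM at P1 and 96.2 ± 4.78 at 1W to 112 ± 22.3 at 2W, 135 ± 4.00 at 4W and 131 ± 12.1 at 8W (SD, n = 3 each). The later 2 ages overlapped each other. None of the steps between these ages was called with all libraries, but 3 of them were with 1 library left out. The step to 1W, 0.25 ± 0.11 (SE, adjusted p = 0.064), passed without 2W replicate 2 (0.27, adjusted p = 0.03) or 3 (0.27, 0.022), E10.5 replicate 1, P1 replicate 3 or 8W replicate 2. The step to 2W, 0.23 ± 0.11 (SE, adjusted p = 0.12), passed without 2W replicate 2 (0.34, adjusted p = 0.017) and was -0.06 on library totals. The step to 4W, 0.26 ± 0.11 (SE, adjusted p = 0.069), passed without 2W replicate 3 (0.42, adjusted p = 0.0029) or E10.5 replicate 1 (0.26, 0.048). From P1 to 8W the change was 0.70 ± 0.11 (SE, adjusted p = 1.2e-06) with TMM, but on library totals it was -0.08 (adjusted p = 0.57), so its direction depends on the scale.

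Npas2 encodes another partner of ARNTL, best known from the forebrain and vessels (chromosome 1, 39193731-39363236). It was close to the limit of detection in the earliest hearts, at 0.194, 0.208 and 0.365 CPM at E10.5 and 0.441, 0.152 and 0.739 at E12.5, and 1 of these libraries held 6 counts. It then read 1.36, 0.860 and 1.52 at E14.5, 6.13, 5.11 and 6.06 at E16.5 and 11.5, 10.4 and 10.7 at E18.5. No library of one of these last 3 ages overlapped one of another. The steps were 1.49 ± 0.32 (SE, adjusted p = 0.0012), 2.20 ± 0.24 (SE, adjusted p = 5.4e-08) and 0.92 ± 0.21 (SE, adjusted p = 0.0015) by edgeR. The gain from E10.5 to E18.5 was 5.35 ± 0.31 (SE, adjusted p = 2.1e-15). After birth the libraries stayed between 7.24 CPM, in 2W replicate 2, and 16.9 CPM, in a 4W library. The difference of 4W from 2W of 0.65 ± 0.20 (SE, adjusted p = 0.014) missed the threshold without 2W replicate 2 (0.45, adjusted p = 0.09) and on library totals (0.43, adjusted p = 0.11). The change from 4W to 8W of -0.60 ± 0.20 (SE, adjusted p = 0.03) was lost when 4W replicate 1, 2 or 3 or 8W replicate 2 or 3 was left out, with adjusted p from 0.057 to 0.13.

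The activator genes thus reached their postnatal level at different ages. Npas2 came within its postnatal range by E18.5, and Arntl took its largest step between 2W and 4W. The postnatal rise of Clock was not seen on library totals. None of the 3 passed the test across birth. In bulk tissue, fewer cells of a type and less RNA per cell cannot be told apart, and this holds for every result here.

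Per1, the repressor gene that also answers directly to glucocorticoids and cAMP (chromosome 11, 69095217-69109960), rose at birth and fell again by 1W. Its libraries read 8.30, 8.90 and 7.40 CPM at E10.5, 11.2, 15.2 and 11.5 at E12.5, 17.1, 18.6 and 17.6 at E14.5, 41.4, 43.2 and 38.9 at E16.5 and 37.9, 36.3 and 37.0 at E18.5. They then read 184, 210.5 and 179.8 at P1 and 20.2, 23.4 and 22.9 at 1W. The P1 libraries were above every other library of the series, and the 1W libraries were below every one of E16.5 and E18.5. Later libraries read 80.1, 90.1 and 55.4 at 2W, 74.0, 84.3 and 82.2 at 4W and 56.8, 57.3 and 64.1 at 8W. The embryonic step at E16.5 was 1.21 ± 0.12 (SE, adjusted p = 8e-09) by edgeR. From E18.5 (37.1 ± 0.773 CPM, SD, n = 3) to P1 (191 ± 16.7) the change was 2.37 ± 0.12 (SE, adjusted p = 2.7e-15) by edgeR. From P1 to 1W (22.1 ± 1.73) it was -3.11 ± 0.13 (SE, adjusted p = 4.8e-17), and from 1W to 2W it was 1.76 ± 0.12 (SE, adjusted p = 3.3e-12). The level at 4W was not called different from 2W, at 0.09 ± 0.12 (SE, adjusted p = 0.6), and that small difference was -0.13 on library totals and -0.09 without 2W replicate 3.

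Per2, whose product with CRY blocks the activator (chromosome 1, 91415982-91459324), moved with Per1 at birth and apart from it after 2W. Its embryonic libraries lay between 4.67 CPM at E10.5 and 19.7 CPM at E16.5, with a step between E14.5 (7.95, 7.25 and 8.80) and E16.5 (19.7, 16.4 and 14.9) of 1.09 ± 0.15 (SE, adjusted p = 1.2e-06) by edgeR. It read 18.6, 19.1 and 18.9 at E18.5 before birth, then 45.0, 47.2 and 37.1 at P1 and 12.9, 13.3 and 15.9 at 1W. It read 22.2, 28.6 and 22.9 at 2W, 6.71, 6.19 and 9.14 at 4W and 9.02, 12.3 and 8.42 at 8W. P1 stood above all other ages without overlap, and the 4W libraries overlapped those of E12.5 and E14.5. The changes were 1.19 ± 0.14 (SE, adjusted p = 5.1e-08) at birth, -1.62 ± 0.14 (SE, adjusted p = 1.8e-10) at 1W, 0.81 ± 0.14 (SE, adjusted p = 6e-05) at 2W and -1.75 ± 0.15 (SE, adjusted p = 2.9e-10) at 4W. The earliest step, 0.38 ± 0.16 (SE, adjusted p = 0.04), missed the threshold without any 1 of E10.5 replicates 2 and 3 and E12.5 replicates 1, 2 and 3 (adjusted p from 0.053 to 0.18). It also missed with RLE size factors (0.07), upper quartile factors (0.071), DESeq2 (0.068), only the 6 libraries compared (0.13) and a filter of at least 1 CPM in 3 libraries (0.051). The last step, 0.44 ± 0.16 (SE, adjusted p = 0.039), missed without 4W replicate 1 or 2 or 8W replicate 2 (0.14 to 0.32) and on library totals (0.22). That step also missed with upper quartile factors (0.069) and with only the 6 libraries compared (0.062).

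Per3, the Per gene least needed for the rhythm itself (chromosome 4, 151003652-151044665), formed a postnatal block with sharp edges. Embryonic libraries lay between 6.49 and 15.7 CPM. They read 15.0, 15.4 and 15.7 at E18.5 and then 46.7, 51.2 and 56.5 at P1, 45.0, 40.7 and 42.9 at 1W and 57.4, 52.4 and 49.4 at 2W. At 4W they read 9.24, 10.7 and 12.0 and at 8W 11.4, 11.1 and 13.2, so that all 9 libraries from P1 to 2W were above all 21 others. The rise at birth was 1.74 ± 0.11 (SE, adjusted p = 8.3e-14) and the fall at 4W was -2.32 ± 0.12 (SE, adjusted p = 1.2e-15) by edgeR. The fall took the mean from 53.1 ± 4.01 to 10.7 ± 1.40 CPM (SD, n = 3 each), below the E18.5 mean of 15.4 ± 0.332. The 2 steps inside the block were small, -0.26 ± 0.11 (SE, adjusted p = 0.053) and 0.31 ± 0.11 (SE, adjusted p = 0.027). The first passed on library totals (-0.37, adjusted p = 0.011), with RLE size factors (-0.27, 0.046), upper quartile factors (-0.30, 0.023) and DESeq2 (-0.27, 0.036). It also passed with only the 6 libraries compared (-0.27, 0.021) and without E10.5 replicate 2 (adjusted p = 0.032), E10.5 replicate 3 (0.035) or P1 replicate 1 (0.036). The second was 0.02 on library totals and missed the threshold without 1W replicate 2 (adjusted p = 0.11), 1W replicate 3 (0.067) or 2W replicate 1 (0.13).

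Cry1, a strong repressor of the activator (chromosome 10, 85131700-85185064), changed least of the 10. Its 30 libraries lay between 12.1 and 20.8 CPM. The means ran from 14.3 ± 1.34 at E10.5 and 12.6 ± 0.582 at E14.5 to 16.9 ± 1.21 at E16.5 and 18.1 ± 0.356 at E18.5 (SD, n = 3 each). A step between E14.5 and E16.5 was called, 0.42 ± 0.10 (SE, adjusted p = 0.0014), and was 0.27 on library totals (adjusted p = 0.066). Cry1 did not pass at birth, -0.10 ± 0.10 (SE, adjusted p = 0.46). Its libraries read 19.4, 18.4 and 20.1 at 2W and 14.8, 14.0 and 15.0 at 4W without overlap, a change of -0.40 ± 0.10 (SE, adjusted p = 0.0023). At 8W against P1 the change was 0.14 ± 0.10 (SE, adjusted p = 0.19) with TMM but -0.05 with upper quartile factors and -0.63 on library totals (adjusted p = 6.6e-06), so no direction is given for it; it was called higher without P1 replicate 2 (0.24, adjusted p = 0.045).

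Cry2, the other cryptochrome (chromosome 2, 92403646-92434043), moved instead with the group that rose at birth. Its libraries read 11.7, 10.9 and 11.3 CPM at E10.5 and 23.3, 29.0 and 26.2 at E12.5, an early step of 1.22 ± 0.09 (SE, adjusted p = 3.9e-13) by edgeR. They stayed between 16.8 and 20.7 CPM from E14.5 to E18.5. At P1 they read 45.6, 48.6 and 48.3, above all other libraries, and then 34.4, 32.9 and 35.2 at 1W, 41.5, 40.0 and 40.8 at 2W, 23.3, 27.2 and 28.2 at 4W and 28.7, 35.0 and 31.8 at 8W. The changes were 1.39 ± 0.09 (SE, adjusted p = 3.9e-14) at birth, -0.48 ± 0.08 (SE, adjusted p = 3.3e-05) at 1W and -0.64 ± 0.09 (SE, adjusted p = 9.6e-07) at 4W. The difference of 2W from 1W, 0.25 ± 0.08 (SE, adjusted p = 0.02), was -0.03 on library totals and missed the threshold without 1W replicate 2 (adjusted p = 0.082) or 2W replicate 1 (0.058). An opposite-strand transcript, D930015M05Rik, overlaps 4.67% of the exon bases of Cry2 and had a mean of at most 0.623 CPM at any age.

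Nr1d1 encodes the receptor that represses Arntl and links the clock to lipid metabolism (chromosome 11, 98767932-98775333). Its libraries read 3.46, 1.67 and 2.75 CPM at E10.5, with the lowest value in the library that stood apart, and 3.06, 3.26 and 3.20 at E12.5. They read 4.98, 5.06 and 5.32 at E14.5, 6.34, 7.62 and 6.18 at E16.5 and 6.49, 5.41 and 6.49 at E18.5, so that no embryonic library was above 7.62 CPM. After birth they read 37.6, 30.4 and 53.4 at P1, 17.7, 19.1 and 17.4 at 1W and 29.8, 30.2 and 28.9 at 2W, high, low and middle in turn. At 4W they read 54.4, 63.5 and 53.0 and at 8W 57.6, 77.7 and 68.8. Every postnatal library was above every embryonic one, and the P1 libraries were spread more widely than those of 1W or 2W. The change at birth, from 6.13 ± 0.621 to 40.5 ± 11.8 CPM (SD, n = 3 each), was 2.73 ± 0.17 (SE, adjusted p = 5.7e-13) by edgeR, the largest change of any member at that step. It was -1.16 ± 0.16 (SE, adjusted p = 1e-06) at 1W, 0.71 ± 0.16 (SE, adjusted p = 0.0009) at 2W and 0.94 ± 0.15 (SE, adjusted p = 3.1e-05) at 4W. The higher level at 8W than at P1, 0.75 ± 0.15 (SE, adjusted p = 9.3e-05) with TMM, was -0.03 on library totals (adjusted p = 0.89).

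Reads from Nr1d1 and its opposite-strand neighbour Thra, a thyroid hormone receptor, could be mixed if strand was not used, since 263 bases or 8.55% of the exon bases of Nr1d1 overlap Thra. Thra changed by 0.57 ± 0.09 (SE, adjusted p = 2.4e-06) at birth and by -0.28 ± 0.09 (SE, adjusted p = 0.0044) from P1 to 8W. It read 94.0, 88.4 and 87.7 CPM at E18.5 and 132, 146 and 124 at P1, a gain in CPM larger than that of Nr1d1, and the part of reads from Thra in the values of Nr1d1 was not tested. Dbp likewise overlaps Sphk2, a lipid kinase gene on the opposite strand, over 539 bases or 18.01% of its exon bases. Sphk2 changed by 0.22 ± 0.11 (SE, adjusted p = 0.12) at birth and by 0.44 ± 0.11 (SE, adjusted p = 0.0029) at 4W against 2W (0.22, adjusted p = 0.15, on library totals), where Dbp went the other way.

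Dbp, the output factor that binds D-boxes (chromosome 7, 45705088-45710203), shared the step at birth and the fall at 4W. Its libraries read 2.62, 1.90 and 2.53 CPM at E10.5 and 4.75, 7.44 and 6.52 at E12.5, a step of 1.41 ± 0.17 (SE, adjusted p = 3.6e-08) by edgeR, and lay between 5.75 and 8.90 CPM from E14.5 to E18.5. They read 26.0, 28.3 and 36.6 at P1, 22.7, 20.5 and 20.7 at 1W and 30.2, 36.4 and 27.0 at 2W. They then read 9.57, 10.4 and 13.5 at 4W and 14.6, 17.4 and 16.6 at 8W. All 9 libraries from P1 to 2W were above all 21 others, as for Per3. The changes were 1.87 ± 0.15 (SE, adjusted p = 3.1e-11) at birth, -1.49 ± 0.15 (SE, adjusted p = 7.2e-09) at 4W and -0.90 ± 0.15 (SE, adjusted p = 3.3e-06) over the postnatal span. The smaller fall at 1W, -0.51 ± 0.15 (SE, adjusted p = 0.0066), missed the threshold without P1 replicate 3 (-0.33, adjusted p = 0.097), and the rise at 2W, 0.55 ± 0.15 (SE, adjusted p = 0.0043), on library totals (adjusted p = 0.16).

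Between 2W and 4W the members did not move one way: Arntl, Npas2 and Nr1d1 were called higher, Per2, Per3, Cry1, Cry2 and Dbp lower, and Per1 and Clock did not pass, though Clock was called higher without 2W replicate 3 (0.42, adjusted p = 0.0029). Immediate early genes, which respond within minutes to handling, stress or growth signals, also differed at that step, with 7 of 8 called higher, none lower and a median log2 change of 1.01 beside 0.00 for all genes. Fos was 6.32, 3.07 and 4.67 CPM at 2W, 27.7, 76.7 and 46.3 at 4W and 5.83, 5.29 and 4.39 at 8W. Summed over the 8 genes the list took 125 to 174 CPM at 2W, 254 to 440 CPM at 4W and 163 to 174 CPM at 8W. At 8W the summed list overlapped 2W, but without overlap Junb and Atf3 were above their 2W libraries and Egr1 and Ier2 below. The 8W libraries of Arntl, Nr1d1, Per2, Per3, Cry2 and Dbp lay on their 4W side of the 2W libraries without overlap. Those of Npas2 and Cry1 overlapped 2W. The share of all genes whose 8W libraries lay on their 4W side was not counted, so nothing particular to the members is read from these positions. The part of the immediate early genes in the changes of the clock genes was not tested. Whether the step belongs to age or to time of day cannot be told apart.

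The ratio of Arntl to an output gene within a library does not depend on how libraries are scaled. Counts of different genes also depend on their length, so only the movement of the ratio is read. The log2 ratio of Arntl to Nr1d1 was 1.52 ± 0.60 at E10.5, 0.69 ± 0.08 at E14.5 and 1.17 ± 0.18 at E18.5 (mean ± SD, n = 3 each). It was -1.44 ± 0.55 at P1, 0.00 ± 0.12 at 1W, -0.90 ± 0.36 at 2W, -0.20 ± 0.08 at 4W and -0.53 ± 0.26 at 8W, and no postnatal library overlapped an embryonic one. For Arntl to Dbp the E10.5 libraries had 1.63 ± 0.30, those of E12.5 0.10 ± 0.34 and those of E18.5 0.74 ± 0.08. This ratio was -1.04 ± 0.50 at P1, -0.24 ± 0.03 at 1W and -0.96 ± 0.55 at 2W. It turned to 2.16 ± 0.29 at 4W and 1.53 ± 0.17 at 8W, where all 6 libraries lay above all 9 of P1 to 2W. The libraries of 8W (1.37 to 1.71) overlapped those of E10.5 (1.33 to 1.93). These ratios are descriptions of members already shown and carry no test.

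**Figure D3:**
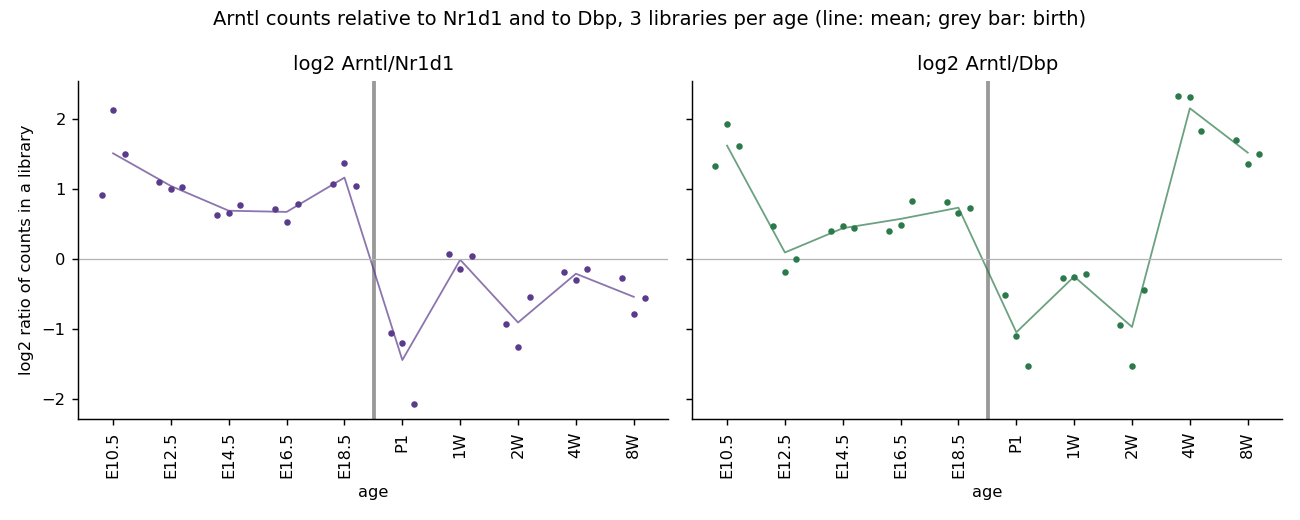
Log2 ratio of Arntl counts to Nr1d1 counts (left) and to Dbp counts (right) in each library against age, 3 points per age, with a line through the means and a grey bar at birth. Both ratios drop below 0 at P1 (-1.44 and -1.04 on average), and the ratio to Dbp rises to 2.16 at 4W while that to Nr1d1 stays near or below 0.

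Per kilobase of exon, which allows genes to be ranked within an age, the order of the members also turned over. At E10.5 Clock and Cry1 led with 4.65 ± 0.681 and 4.29 ± 0.402 CPM per kilobase (SD, n = 3), a gap within their spread, and Npas2 was last with 0.0534 ± 0.0198. At E18.5 Per1 led with 6.58 ± 0.137, followed by Clock (5.54 ± 0.487) and Cry1 (5.41 ± 0.107), which did not differ beyond their spread, and Per3 was last with 1.60 ± 0.0346. At P1 Per1 led with 34.0 ± 2.97, followed by Nr1d1 (13.2 ± 3.82) and Dbp (10.1 ± 1.87), which did not differ beyond their spread, and Arntl was last with 1.96 ± 0.398. At 1W Dbp was first with 7.13 ± 0.399, ahead of Clock by less than their spread. At 4W and 8W Nr1d1 led, with 18.5 ± 1.85 and 22.1 ± 3.26, Per1 came next with 14.2 ± 0.964 and 10.5 ± 0.718, and Arntl stood in the fourth place with 6.56 ± 0.311 and 6.20 ± 0.180. Per2 and Per3 were the lowest 2 at both of these ages, with 1.26 ± 0.269 and 1.11 ± 0.146 at 4W, within their spread of each other.

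Around this core, 11 other genes of the loop were listed, among them the receptor gene Nr1d2, the repressors Ciart, Nfil3, Bhlhe40 and Bhlhe41, the Dbp relatives Tef and Hlf, and Arntl2. At E18.5 against E10.5, 8 of the 11 were called higher and 1 lower, with a median of 0.76 beside 0.00 for all genes. Hlf had a change of 3.46 ± 0.16 and Bhlhe40 of 2.57 ± 0.17, while Ciart, a repressor of the activator, had -0.75 ± 0.27. At birth 7 were called higher and 1 lower, with a median of 0.79 beside 0.00, which is also the median of all genes for the lists that follow at that step. Ciart then changed by 2.41 ± 0.26, Nr1d2, the close relative of Nr1d1, by 1.45 ± 0.09 and Tef by 1.39 ± 0.09. Bhlhe40 was the 1 called lower (-0.44 ± 0.16). At 1W against P1, 1 was called higher and 6 lower, with a median of -0.39. At 4W against 2W, 2 were called higher and 3 lower, or none and 5 on library totals, and Tef (-0.85 ± 0.09) and Nr1d2 (-0.55 ± 0.09) were among the lower. At 8W against P1 the split was 5 and 4, but 1 and 5 on library totals.

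The 14 genes for enzymes and cofactors that modify or bind clock proteins showed no shared direction. At E18.5 against E10.5, 2 were called higher and 5 lower (2 and 7 on library totals), with a median of -0.17. Usp2, a deubiquitinase whose own transcript cycles, had 1.52 ± 0.10, and the RNA-binding partners of PER, Nono and Sfpq, had -0.57 ± 0.07 and -0.50 ± 0.09. At birth 6 were called higher and 2 lower, with a median of 0.15. Csnk1e, a kinase of PER proteins, had 0.50 ± 0.07. Timeless, which in mammals also serves the replication fork, changed by -2.03 ± 0.23 at P1 and by 1.92 ± 0.23 at 1W. At 8W against P1 the split was 4 higher and 6 lower, but none and 12 on library totals.

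Of 12 output genes of the clock in heart or other tissues, 9 were called higher and 1 lower at E18.5 against E10.5, with a median of 1.16, and 7 and 3 on library totals. At birth 8 were called higher and 1 lower, with a median of 0.63. The Krüppel-like factor genes led, with Klf9 at 2.53 ± 0.11, Klf11 at 2.03 ± 0.10 and Klf10 at 1.77 ± 0.11, and Wee1, a brake on entry into mitosis, was the 1 called lower (-0.52 ± 0.12). At 8W against P1, 7 were called higher and 4 lower, with a median of 0.77 beside -0.11 for all genes, and 5 and 5 on library totals. Nampt, which makes NAD, had 2.35 ± 0.09 and Kcnip2, a subunit of the channel for the transient outward current, 1.71 ± 0.15, while Klf11 (-2.30 ± 0.10) and Klf10 (-1.76 ± 0.11) were lower. Klf15, which links glucocorticoids and the clock to cardiac repolarization, had 1.21 ± 0.13 at birth, -2.13 ± 0.14 at 1W and 1.86 ± 0.14 at 2W.

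Because Per1 is also a direct target of glucocorticoids, which surge around birth, a list of 7 other glucocorticoid-induced genes was set beside it. At birth 7 of 7 were called higher (6 on library totals), with a median of 1.33. At 1W none was called higher and 6 lower, with a median of -1.06, and at 2W 6 were called higher and none lower, with a median of 1.03. Sgk1, a kinase of ion transport, had 1.41 ± 0.10 at birth, -1.02 ± 0.10 at 1W and 1.08 ± 0.10 at 2W. Fkbp5, a co-chaperone of the glucocorticoid receptor, read 31.8, 31.9 and 28.2 CPM at E18.5, then 59.5, 82.0 and 26.8 at P1 and 13.2, 11.7 and 13.7 at 1W. Its P1 libraries were far apart and replicate 3 lay below the E18.5 libraries. The summed list took 209 to 221 CPM at E18.5 and 339 to 539 CPM at P1, then 188 to 197 CPM at 1W and 482 to 527 CPM at 2W. The list and Per1 thus moved the same way at these 3 steps, and also over gestation, with 6 of 7 called higher and none lower. They parted later. At 8W against P1, 4 were called higher and 1 lower (3 and 3 on library totals), while Per1 changed by -1.69 ± 0.12. At 8W against 4W, 3 were called higher and none lower (2 and 1 on library totals), while Per1 changed by -0.43 ± 0.12. The part of the list in the changes of Per1 was not tested.

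Immediate early genes also rose at birth, 6 of 8 called higher and none lower with a median of 0.82, and their sum was 110 to 117 CPM at E18.5 and 197 to 248 CPM at P1. At 1W the sum was 184 to 267 CPM, with 1 of 8 called higher and 2 lower against P1, where Per1 fell. Their part in the changes of Per1 was likewise not tested.

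**Figure D4:**
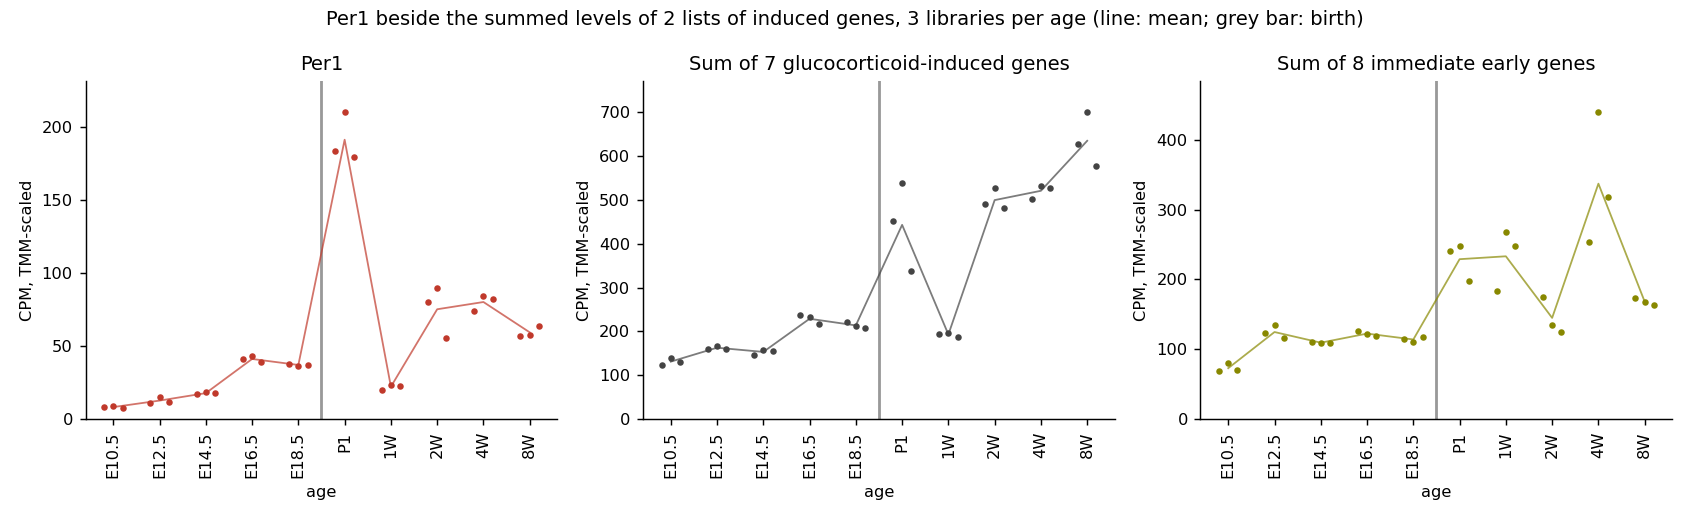
Level of Per1 (left), summed level of 7 glucocorticoid-induced genes (middle) and of 8 immediate early genes (right), in CPM after TMM scaling on linear axes from 0, against age, 1 point per library with a line through the means and a grey bar at birth. Per1 and the glucocorticoid list are both high at P1 and low at 1W, and the list reaches 577 to 702 CPM at 8W, where Per1 lies between 56.8 and 64.1 CPM.

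Markers of other cell types moved at some of the same steps. At birth 4 of 5 fat markers were called higher, with a median of 3.15, and their sum was 140 to 151 CPM at E18.5, where Ucp1 had no count, and 312 to 391 CPM at P1. Nearly all of that sum was Fabp4, with 135 to 145 CPM at E18.5 and 289 to 369 CPM at P1, while Adipoq, Plin1 and Ucp1 reached at most 2.83 CPM in a P1 library. Of the macrophage markers 3 of 5 were called higher at birth (2 on library totals), with sums of 81.6 to 96.8 CPM at E18.5 and 97.7 to 133 CPM at P1. Of the endothelial markers 4 of 5 were called higher and 1 lower (3 and 1 on library totals), with sums of 929 to 1052 CPM and 1150 to 1242 CPM. Fibroblast markers, with 1 of 5 called higher and none lower (none called on library totals), summed to 4866 to 5112 CPM at E18.5 and 4651 to 6266 CPM at P1. At 4W against 2W, 4 of 5 fibroblast markers were called lower, with sums of 7268 to 8788 CPM at 2W and 4249 to 4417 CPM at 4W. At that step 5 of 6 erythroid markers were called higher, with sums of 2017 to 3061 CPM and 3759 to 10802 CPM. All 5 macrophage markers were also called higher (3 on library totals), with sums of 191 to 214 CPM and 283 to 307 CPM. Smooth muscle and pericyte markers had 2 of 5 called higher at birth, and 1 higher and 2 lower at 4W. Neuron markers had 1 of 5 called lower at birth (2 on library totals) and 1 higher at 4W (none on library totals), and never summed to more than 14.0 CPM. Erythroid markers had none of 6 called at birth, and endothelial markers 2 of 5 lower at 4W (5 on library totals). Cardiomyocyte markers had 5 of 6 called higher at birth (4 on library totals) and 4 of 6 at 4W (2 on library totals). The part of these shifts in the levels of the clock genes was not tested.

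Among 3 libraries of an age, some library must be the highest and another the lowest for each gene. Single libraries were thus extremes for several members at other ages as well as at 2W and P1. At 8W, replicate 2 had the lowest Arntl (45.1 CPM), Npas2 (9.30), Per3 (11.1) and Cry1 (16.9). It also had the highest Clock (143), Per2 (12.3), Cry2 (35.0), Nr1d1 (77.7) and Dbp (17.4). At 2W, replicate 2 had the lowest Arntl (12.7 CPM), Clock (93.0) and Npas2 (7.24) and the highest Per1 (90.1), Per2 (28.6) and Dbp (36.4). Replicate 3 of that age had the highest Arntl (20.1), Clock (136.9) and Npas2 (12.7) and the lowest Per1 (55.4) and Dbp (27.0). The repressor genes did not all follow Per1: Cry1 was lowest in replicate 2 (18.4) and highest in replicate 3 (20.1), Cry2 was lowest in replicate 2 (40.0), and replicate 1 had the lowest Per2 (22.2) and the highest Per3 (57.4). Replicates 2 and 3 also resembled their age least over all genes. At P1, replicate 3 had the highest Nr1d1 (53.4), Dbp (36.6), Per3 (56.5) and Clock (85.9) and the lowest Per1 (179.8), Per2 (37.1), Cry1 (14.9), Arntl (12.8) and Npas2 (9.28). The same library had the lowest Fkbp5 (26.8) and Klf15 (23.3) of its age. With 3 libraries and no hours, these are values and no more.

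Over the 30 libraries, log2 levels were set against those of 10707 genes whose mean reached 5 CPM, as a description in which all points share age, library and scale. The gene most like Dbp was Tef (r = 0.966), another factor of its family, and Cry2 was in the third place (r = 0.944) beside Wdr13 (0.944). Per3 stood at place 212 for Dbp (r = 0.86). The gene most like Per1 was Sult1a1 (r = 0.932), with the glucocorticoid-induced Sgk1 (0.909) among the nearest 5, and the member nearest to Per1 was Nr1d1 (r = 0.82, place 219). For Arntl the nearest was Epha4 (r = 0.966), for Clock it was Ralgapa1 (0.977) and for Nr1d1 it was Ppm1a (0.974). Arntl had r = 0.88 with Nr1d1 (place 1011) and 0.87 with Clock (place 1172), so many other genes were closer to it. It had 0.06 with Per2 (place 5756) and 0.10 with Per3 (place 5657). At the other end stood Mthfd1l for Arntl (r = -0.972), Manf for Dbp (-0.952), Rnf219 for Per1 (-0.943), Trim28 for Clock (-0.973) and Dnaaf2 for Nr1d1 (-0.978).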

How the data were processed

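Total RNA was taken with Trizol and poly(A) RNA selected with oligo-T beads, per the labels' protocols. The authors deposited 1 table of expected counts per gene and library, of which 6.94% were not whole (tolerance 1e-06), so the deposited expected counts were rounded before testing. Per the submitters' processing notes, the builds were GRCm38 and mm10 and the tools STAR 2.5.3a and fastp 0.18.0. No source used here names the counter, the annotation release or a strand setting, so reads of opposite-strand overlaps cannot be assigned. Rows without a symbol held 0.23% of counts.

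Genes were filtered with filterByExpr, scaled by TMM and fitted over all 30 libraries as 10 age means with edgeR 4.0.16 in R 4.3.3 (quasi-likelihood, robust, 20 residual degrees of freedom). The model was tested on simulated data. CPM are TMM-scaled, and exon lengths and overlaps come from the GENCODE annotation of GRCm38. Alternatives were other scalings and filters, only the 6 libraries compared, a replicate block, DESeq2 1.42.0, and leaving out each library. The members, the 5 gene lists and 8 marker lists were chosen with earlier results of these data known. The rule for named genes took the 10 members, up to 3 called genes each way per gene list with the largest log2 change over gestation (E10.5 to E18.5), across birth (E18.5 to P1) and over postnatal life (P1 to 8W), any gene whose exons overlap a member's, and the 5 genes highest and lowest in r with each of 5 members. Tef, Klf15, Fkbp5, Ucp1, Fabp4, Adipoq and Plin1, and the list genes' values at other steps, fall outside it and were chosen after their values were seen. Some genes that the rule takes are counted in their lists but not reported here by name. Levels rest on 6 to 6163 counts per member and library.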

Additional observations from a re-analysis of the deposited data

How the results depend on the processing

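Scaling by library totals turned the direction of 12 of 110 member changes: at 8W against P1 Clock (-0.08), Cry1 (-0.63) and Nr1d1 (-0.03); at E16.5 against E14.5 Cry2 (-0.08); at P1 against E18.5 Arntl (-0.02), Clock (-0.03) and Npas2 (-0.02); at 1W against P1 Npas2 (-0.01); at 2W against 1W Clock (-0.06), Cry1 (-0.25) and Cry2 (-0.03); and at 4W against 2W Per1 (-0.13). Upper quartile factors turned Cry1 at 8W against P1 (-0.05) and at 2W against 1W (0 after rounding). The count of members called at 8W against 4W was 2 on library totals, against 6, and all genes called at E14.5 against E12.5 numbered 6206 with only the 6 libraries compared, against 3527. Of the called genes at 8W against P1, 47.5% were higher with TMM, 37.2% with upper quartile factors and 15% on library totals.

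With 1 library left out in turn, members called ranged from 2 to 6 at 8W against 4W and from 2 to 4 at E18.5 against E16.5. All genes called ranged from 2221 (without E14.5 replicate 3) to 4578 at E14.5 against E12.5, and from 3107 (without E18.5 replicate 3) to 5624 at E18.5 against E16.5, against 4672. Changes that turned were Arntl at P1 against E18.5 (-0.08 to 0.18), Clock at 8W against 4W (-0.11 to 0.01), Cry1 at 2W against 1W (-0.01 to 0.08), Dbp at E14.5 against E12.5 (-0.20 to 0.11), Npas2 at 1W against P1 (-0.02 to 0.19) and Per1 at 4W against 2W (-0.09 to 0.24). None of these 6 was called with all libraries. The cause was not tested, apart from the smaller number of samples in the fits that leave some out.

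Replicate numbers were not taken as pairs, since not every r between the deviations of same-numbered libraries was over 0.1: the mean was 0.01 (from -0.1 to 0.12), against -0.01 for libraries with other numbers. Of the 30 libraries 19 were closest to their own number, more than unrelated numbers would give on average, which is a hint of pairing from the data and not from the design. With the replicate block the members called were 10 at E18.5 against E10.5, 6 at P1 against E18.5 and 8 at 8W against P1, as without it, and Clock passed at 1W against P1 (0.26, adjusted p = 0.048) and at 4W against 2W (0.27, adjusted p = 0.046). In the test over all 10 ages at once, none of the 8 settings run, the block among them, changed the call of a member. At single steps other settings did change calls. At 1W against P1 Per3 passed with DESeq2 (-0.27, adjusted p = 0.036), and at 4W against 2W Npas2 was lost on library totals (0.43, adjusted p = 0.11). Depth limits Npas2 before E14.5, where libraries held as few as 6 counts.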
